A study of Mus musculus with 13 samples.

Results

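The 10 tubulin genes described here encode the 2 building blocks of microtubules: Tuba1a, Tuba1b, Tuba1c and Tuba4a encode alpha-tubulins, and Tubb2a, Tubb2b, Tubb3, Tubb4a, Tubb5 and Tubb6 encode beta-tubulins. They were taken by symbol from the 55291 symbols in the count files. The rule uses no measured value, though the set was proposed with earlier results of these data known. After entorhinal cortex lesion (ECL), transcripts of the beta genes Tubb2a, Tubb5 and Tubb3 fell relative to non-lesioned controls. Those of Tubb4a and Tubb6 rose, while no alpha gene passed the test. Tubb3 and Tubb6 no longer passed in 11 and 9 of 18 alternative settings. With an offset for length and GC content, neither Tubb4a nor Tubb6 passed, while Tuba1a and Tuba1b did, both lower. After Schaffer collateral lesion (SCL), no tubulin gene passed the test in the fit as reported. Set directly against each other, the lesions gave no call among these genes.

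Microtubules are hollow polymers of alpha-beta dimers that give axons and dendrites their shape and serve as tracks for transport. Vertebrates carry several alpha and several beta genes, called isotypes, whose proteins are nearly alike except at the acidic carboxy-terminal tail, where enzymes and microtubule-associated proteins act. Tubb3 is used as a marker of neurons, Tubb4a is abundant in myelinating oligodendrocytes, Tuba1a is the main alpha gene of developing neurons, and Tubb5 and Tubb6 are expressed in many cell types. Cells also adjust tubulin mRNA to the pool of free dimers, through a mechanism that reads the first residues of the tubulin chain as it is being made.

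RNA was sequenced from the CA1 region of 13 single entorhino-hippocampal slice cultures of wildtype C57BL/6 mice, prepared at postnatal day 4 to 5 and matured over 18 days or more in vitro. The groups were 5 non-lesioned controls, 4 SCL cultures, in which the CA3 input to CA1 had been cut, and 4 ECL cultures, in which the entorhinal input had been cut; lesioned tissue was collected 3 days after the cut and without the scar. All were polyadenylated RNA of whole tissue, so neurons and glia were measured together, and fewer cells of a type cannot be told apart from less RNA per cell. Cultures are numbered by the titles of the samples, and the column headings of the files number them otherwise. Both sexes were used unevenly, with 2 males among 5 controls, 1 among 4 SCL and 3 among 4 ECL cultures.

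Total counts ran from 14371152 to 56786613 per library, of which the 10 genes took between 0.161% and 0.233%. The titles name CA1 and the protocol text names the dentate gyrus. The 7 CA1 pyramidal markers found in the files summed to 384 to 607 CPM (counts per 1000000 counts, scaled by TMM) and the 7 dentate granule cell markers to 73.7 to 93.5 CPM in controls, 51.3 to 59.1 CPM after SCL and 54.6 to 64.7 CPM after ECL. The 7 CA3 pyramidal markers summed to 98.4 to 162 CPM in controls, 76.8 to 168 CPM after SCL and 101 to 179 CPM after ECL. The CA1 sum was above the dentate sum in each library. Sums of different genes depend on the level of each gene, so their order cannot tell the region. The dentate sum was lower in each lesioned library than in any control. Of the 2 dentate markers tested, Stxbp6 was called lower after both lesions. Microglia markers moved with the lesions: their 12 members summed to 580 to 696 CPM in controls, 1170 to 2442 CPM after SCL and 1334 to 1739 CPM after ECL, and all 12 were called higher after SCL and 8 after ECL. Of the 10 neuron markers, 5 were called lower after each lesion and 1 higher after ECL, with sums of 3776 to 4168 CPM in controls, 3301 to 4187 CPM after SCL and 3159 to 4617 CPM after ECL. Of 9 astrocyte markers, SCL gave 5 calls, all higher, and ECL gave 3 higher and 1 lower, with sums of 9483 to 15160 CPM in controls, 11813 to 15189 CPM after SCL and 10373 to 13142 CPM after ECL. The 17 cell cycle genes summed to 139 to 202 CPM in controls, 269.7 to 330.2 CPM after SCL and 149 to 242 CPM after ECL, with 6 of 8 tested called higher after SCL and 1 of 4 after ECL. For comparison, SCL gave calls for 24.9% of all genes tested, split into 13.1% up and 11.8% down. For ECL this share was 27.8%, with 15.2% up and 12.5% down. No defining marker of the lists above was at 0 throughout. The part of these shifts in the tubulin values was not tested.

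Short stretches at both ends of the reading frame are printed here. The first 12 coding bases, which carry the residues read by the control of tubulin mRNA, are shown because 3 alpha genes share them to the base while the others differ at a few positions. Positions are from GENCODE M21 on GRCm38, and the bases are those of the coding strand, in capitals throughout.
Tuba1a, Tuba1b and Tuba1c: ATGCGTGAGTGC
Tuba4a: ATGCGCGAGTGC
Tubb2a: ATGCGCGAGATC
Tubb2b: ATGCGAGAGATC
Tubb3: ATGAGGGAGATC
Tubb4a: ATGCGGGAAATC
Tubb5: ATGAGGGAAATC

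The last 45 coding bases, with the stop codon, encode the tail by which isotypes are told apart, and the capitals mark the last sense codon. In Tuba1c it encodes the tyrosine that vasohibins remove and tubulin tyrosine ligase restores, and in Tuba4a it encodes glutamate.
Tuba1c: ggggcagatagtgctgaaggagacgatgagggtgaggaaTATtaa
Tuba4a: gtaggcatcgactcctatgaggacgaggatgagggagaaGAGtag
Tubb2a: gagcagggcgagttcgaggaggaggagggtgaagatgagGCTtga
Tubb2b: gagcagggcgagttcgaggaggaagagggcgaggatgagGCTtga
Tubb3: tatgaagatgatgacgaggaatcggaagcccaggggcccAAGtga
Tubb4a: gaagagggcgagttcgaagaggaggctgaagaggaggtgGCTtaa
Tubb5: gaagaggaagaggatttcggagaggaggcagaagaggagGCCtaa

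Tubb2a and Tubb2b differed at 3 of these 45 bases. Over the whole reading frame, 98.3% of aligned bases were identical between Tuba1a and Tuba1b, 97.1% between Tuba1a and Tuba1c, 97.9% between Tuba1b and Tuba1c and 96.5% between Tubb2a and Tubb2b, while Tubb5 and Tubb6 shared 80.2%. The 3 close alpha genes lie side by side, Tuba1b at chr15:98931425-98934565 and Tuba1a at chr15:98949837-98953703 on the minus strand and Tuba1c at chr15:99029891-99038110 on the plus strand. Tubb2a at chr13:34074274-34078007 and Tubb2b at chr13:34126748-34130466, both on the minus strand, are neighbours too.

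The likeness limits how well reads can be assigned. Of all stretches of 100 bases in the exons, 34.2% of Tuba1a, 34.8% of Tuba1b and 54.0% of Tuba1c occurred in no other gene, against 63.1% of Tubb2a and 74.0% of Tubb2b. A stretch also counted as shared where another gene model covers the same place, as Gm49450 does for parts of Tuba1a and Tuba1b. The reads were paired and longer than these stretches, so the shares are not those of the reads. For Tubb3 (chr8:123411424-123422015, plus), Tubb4a (chr17:57080066-57087782, minus), Tubb5 (chr17:35833921-35838306, minus) and Tubb6 (plus strand of chromosome 18) every stretch occurred in no other gene. Levels of Tuba1a, Tuba1b, Tuba1c, Tubb2a and Tubb2b are therefore less certain than those of Tubb3, Tubb4a, Tubb5 and Tubb6. Tuba4a (chr1:75214228-75219865, minus) shares 37.3% of its exon bases with Stk16 on the opposite strand, and the counting ignored strand. Stk16 held 406 to 2947 counts per library. Tuba1a and Tuba1b share 26.2% and 27.4% of theirs with overlapping gene models, of which Gm49450 was at 0 counts in each library and Gm41396 held 6 to 49.

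Levels of different genes were compared as CPM per kb of exon. In controls Tuba1a stood first at 360 ± 29.2 CPM per kb (SD, n = 5) and Tubb2a second at 331 ± 16.5, with ranges that overlapped. Left out of the length, the exon bases shared with other genes raise Tuba1a to 488 ± 39.6 CPM per kb, which then did not overlap Tubb2a. Tubb5 at 139 ± 20.4 and Tuba1b at 127 ± 9.90 came next and overlapped each other but neither their neighbours above nor those below. Tubb3 stood alone at 44.9 ± 4.91. Tubb2b at 20.6, Tuba4a at 19.9 and Tubb4a at 18.9 CPM per kb had overlapping ranges, and Tuba1c at 4.06 and Tubb6 at 3.48 CPM per kb formed the lowest pair, also with overlapping ranges. Without the shared bases Tuba4a stood at 31.8 ± 5.36 CPM per kb, above Tubb2b in the mean, and Tuba1b at 175 ± 13.6, above Tubb5 in the mean, each with ranges that still overlapped. This second length was chosen after seeing the data and fits counting that drops reads in shared bases. Whether the counting did so is not given in the sources used here. Gm49450, which shares bases with Tuba1a and Tuba1b, held 0 counts in each library, so reads in those bases were not counted for it. Of the summed level of the 4 alpha members Tuba1a made up 69.2 to 72.1%, and of that of the 6 beta members Tubb2a made up 56.2 to 61.7%, or 50.1 to 55.3% with Tubb4b, which is no member, added to the sum.

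The order of several genes differed from that in controls after both lesions. After SCL Tubb2a stood at 282 ± 33.7 CPM per kb (SD, n = 4), below the range of Tuba1a, Tuba1b at 119 and Tubb5 at 119 overlapped, and Tubb4a at 35.8 ± 22.7 was in the sixth place, overlapping its neighbours Tubb3 and Tubb2b. After ECL Tubb2a stood at 207 ± 18.3 CPM per kb (SD, n = 4), also below the range of Tuba1a, and Tubb5 at 85.4 ± 9.24 came after Tuba1b at 104 ± 15.7, with overlap. Tubb4a, in the eighth place in controls, was in the fifth at 49.5 ± 19.3 CPM per kb, next to Tubb3 at 33.7 ± 4.15, with ranges that overlapped. Tubb4a accounted for 1.33 to 5.43% of the summed level of the 6 beta members in controls, 2.18 to 14.2% after SCL and 7.49 to 18.0% after ECL.

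**Figure D1:**
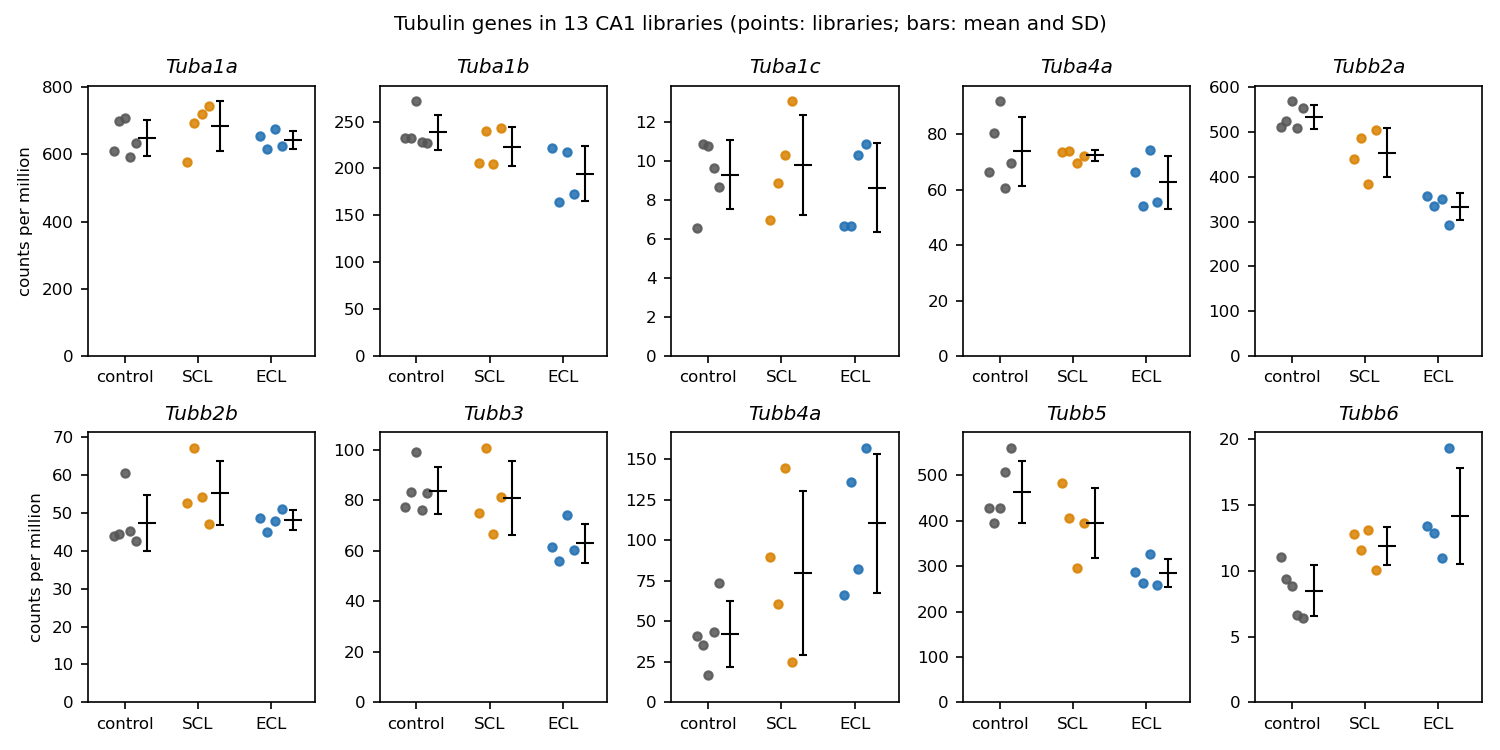
CPM (vertical axis, linear and from 0) of the 10 tubulin genes in 5 control, 4 SCL and 4 ECL libraries. Points are libraries and bars give the mean and SD. The 4 ECL libraries lie below all controls for Tubb2a, Tubb5, Tubb3 and Tuba1b, while the groups overlap for Tubb4a and Tubb6.

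Each lesion was set against the same 5 controls in a fit of its own with edgeR's quasi-likelihood test, with p-values adjusted by the Benjamini-Hochberg method over all genes tested. All 10 members passed the minimum mean normalized count of 150 in each comparison. After ECL, 5 of 10 were called at an adjusted p under 0.05, 2 higher and 3 lower, where 27.8% of the 11212 genes tested were called, 15.2% higher and 12.5% lower. The median log2 fold change was -0.17 over the members and -0.01 over all genes tested. The groups did not overlap for 4 of 10 members, against 25% of all genes tested, and 5 of 10 had an unadjusted p under 0.05, against 40.3% of all genes. After SCL, 0 of 10 were called by edgeR's test, where 24.9% of the 11438 genes tested were called. At an unadjusted p under 0.05 there was 1 member, Tubb4a, against 38.8% of all genes, and DESeq2 also called 0. The median log2 fold change after SCL was 0.02 over the members and 0.01 over all genes.

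Tubb2a, with Tubb2b one of the main beta genes of neurons, fell after ECL. Its level was 511, 524, 569, 509 and 553 CPM in controls 1 to 5, and 357, 334, 351 and 292 CPM in ECL cultures 1 to 4. All ECL values lay below all control values. The log2 fold change was -0.67 (SE 0.13, edgeR adjusted p = 0.00203), or 0.629 of the control level. Without a filter on low counts its adjusted p was 0.0540. After SCL the values were 440.4, 487, 384 and 505 CPM, also all below the controls, with a log2 difference of -0.23 (SE 0.13, edgeR adjusted p = 0.205). It was the member whose groups did not overlap after SCL, where 23.6% of all genes did not.

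Tubb5, a beta gene of broad expression, fell by a similar amount. Controls held 428, 395.9, 428, 507 and 561 CPM and ECL cultures 287, 264, 327 and 259.7 CPM, without overlap. The log2 fold change was -0.70 (SE 0.15, edgeR adjusted p = 0.00357), or 0.616 of the control level. SCL cultures held 483, 406, 297 and 395.7 CPM, so that cultures 1 and 2 lay within the control range, culture 4 just under its lowest value of 395.9 and culture 3 well below it. The log2 difference after SCL was -0.23 (SE 0.16, edgeR adjusted p = 0.318). Tubb5 was called lower after ECL under all 18 alternative settings tried.

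Tubb3, the neuronal beta isotype, fell less. Controls held 77.4, 83.3, 99.2, 76.2 and 82.8 CPM and ECL cultures 61.3, 56.0, 74.0 and 60.3 CPM. The highest ECL culture lay just below the lowest control, and the log2 fold change was -0.41 (SE 0.14, edgeR adjusted p = 0.0457). This call was lost in 11 of 18 alternative settings, among them a sex term and 7 of the 9 fits that left out a library, with adjusted p-values of up to 0.129 when 1 library was left out and 0.421 at most. SCL cultures held 74.9, 101, 66.6 and 81.4 CPM, around the control values, with a log2 difference of -0.05 (SE 0.15, edgeR adjusted p = 0.821).

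Tubb4a, a beta isotype abundant in myelinating oligodendrocytes, rose the most among the members after ECL. Controls held 40.6, 35.4, 17.0, 43.6 and 73.8 CPM and ECL cultures 66.3, 136, 82.4 and 157 CPM. Control 5 lay above ECL culture 1, so the groups overlapped, and the 4 ECL values were all above the control mean. The log2 fold change was 1.40 (SE 0.34, edgeR adjusted p = 0.00798), or 2.64-fold. An offset fitted to the length and GC content of each gene ended this call, with a log2 fold change of 0.97 and an adjusted p of 0.0756.

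Relative to its mean, Tubb4a was the most variable member in each group. After SCL it stood at 89.7, 60.4, 144 and 24.9 CPM. Culture 4 lay within the control range and culture 3 near the highest ECL values. The log2 difference was 0.93 (SE 0.43, edgeR adjusted p = 0.128). Without SCL culture 4 it was 1.23 (edgeR adjusted p = 0.0286). The 10 oligodendrocyte markers summed to 4701 to 6296 CPM in controls, 4577 to 5860 CPM after SCL and 4079 to 6300 CPM after ECL. Of these markers 2 of 10 were called higher after each lesion, where 13.1% (SCL) and 15.2% (ECL) of all genes tested were. Their median log2 fold changes were 0.05 and 0.00. SCL culture 4, the lowest in Tubb4a among the lesioned cultures, summed to 5822 CPM for these markers, and ECL culture 1, the lowest in Tubb4a among the ECL cultures, to 4079 CPM.

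Tubb6, a beta gene at low level here, rose after ECL. Controls held 11.1, 9.37, 8.85, 6.66 and 6.45 CPM and ECL cultures 13.4, 12.9, 10.9 and 19.3 CPM. The lowest ECL culture lay just under the highest control. The log2 fold change was 0.75 (SE 0.25, edgeR adjusted p = 0.0359), or 1.68-fold, and the call was lost in 9 of 18 alternative settings. These included a sex term and each fit without control 3, 4 or 5 or without ECL culture 1, 2 or 4, with adjusted p-values of up to 0.171. SCL cultures held 12.8, 11.6, 13.1 and 10.0 CPM, all above the control mean, with a log2 difference of 0.49 (SE 0.23, edgeR adjusted p = 0.133).

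Tubb2b, the neighbour of Tubb2a, was not called after either lesion. Its levels were 43.9, 44.3, 60.4, 45.2 and 42.5 CPM in controls, 52.4, 67.1, 54.1 and 47.1 CPM after SCL and 48.7, 44.8, 47.8 and 51.1 CPM after ECL. The log2 difference was 0.22 after SCL (SE 0.16, edgeR adjusted p = 0.317) and 0.03 after ECL (SE 0.15, edgeR adjusted p = 0.890), with a 95% interval from -0.25 to 0.32 after ECL; under the length and GC offset both were negative, at -0.07 and -0.26. The groups overlapped throughout.

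The ratio of both neighbours was compared within libraries, where scaling has no part. The log2 ratio of Tubb2b to Tubb2a stood at -3.51 ± 0.17 (SD) in 5 controls, at -3.04 ± 0.27 in 4 SCL libraries and at -2.79 ± 0.18 in 4 ECL libraries. It lay higher after ECL than in controls by 0.72 without overlap (exact permutation test, two-sided, p = 0.0159, adjusted p = 0.0952 over 9 ratio tests) and after SCL by 0.46 (exact permutation p = 0.0317, adjusted p = 0.0952). No ratio passed the adjustment. For 5 against 4 libraries this two-sided test gives no p below 0.0159, the value reached by the Tubb2b to Tubb2a ratio after ECL. A single ratio at that p cannot pass the adjustment over 9 tests.

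**Figure D2:**
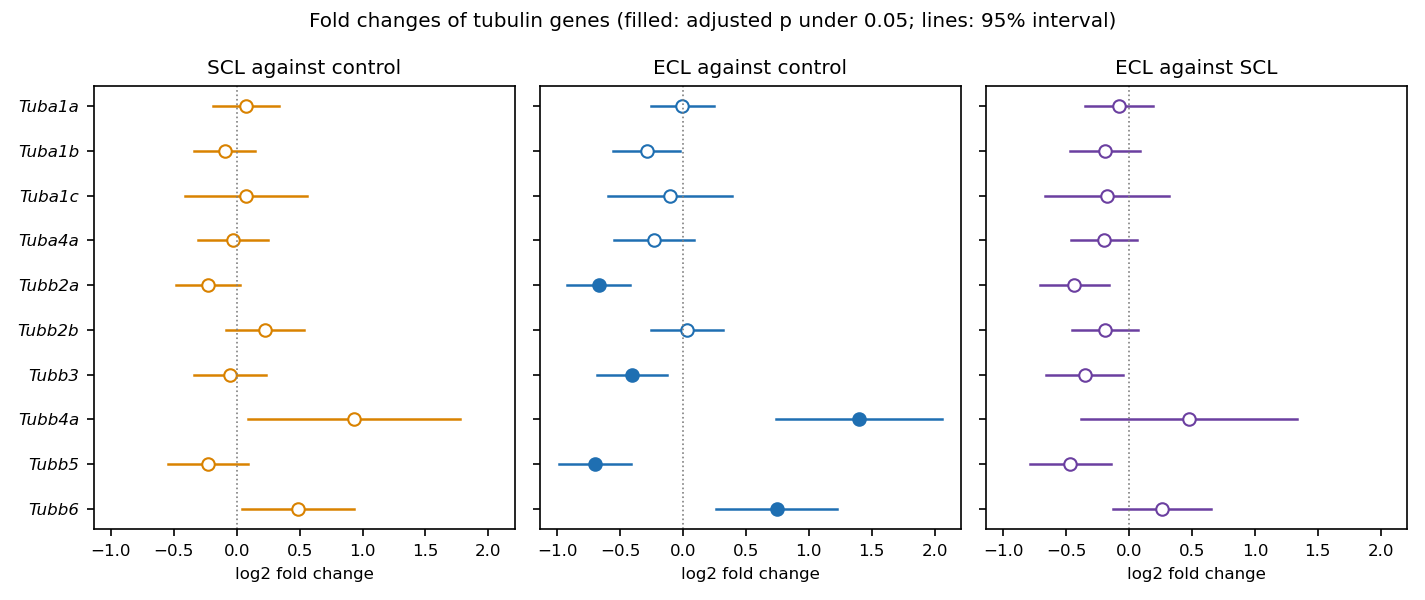
Log2 fold changes (horizontal axes) of the 10 tubulin genes for SCL against control, ECL against control and ECL against SCL. Lines are 95% intervals by a normal approximation, and filled points have an adjusted p under 0.05. The lines are narrower than the test implies. That of Tuba1b after ECL ran from -0.56 to -0.02 at an unadjusted edgeR p of 0.0533. In the ECL panel Tubb2a, Tubb3 and Tubb5 are filled and negative and Tubb4a and Tubb6 filled and positive, while no point is filled for SCL or for ECL against SCL.

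None of the 4 alpha genes was called after either lesion, where 24.9% (SCL) and 27.8% (ECL) of all genes tested were. Tuba1a held 609, 700.4, 708, 593 and 634 CPM in controls, 579, 694, 720.0 and 745 CPM after SCL and 654, 615, 676 and 626 CPM after ECL, and the ranges of the groups lay over one another. Its log2 difference was 0.08 after SCL (SE 0.13, edgeR adjusted p = 0.714) and -0.01 after ECL (SE 0.13, edgeR adjusted p = 0.980; 95% interval -0.26 to 0.24). Under the length and GC offset it was -0.28 after SCL and it was called lower after ECL, at -0.41 with an adjusted p of 0.0133.

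Tuba1b, an alpha gene of broad expression, was the nearest of the 4 to a call. It held 233, 233, 272, 229 and 228 CPM in controls and 222, 165, 217 and 173 CPM after ECL, without overlap, and the log2 difference was -0.29 (SE 0.14, edgeR adjusted p = 0.130). SCL cultures held 206, 239, 204 and 243 CPM, a log2 difference of -0.10 (SE 0.12, edgeR adjusted p = 0.591). The length and GC offset brought Tuba1b past the threshold after both lesions, at -0.46 (adjusted p = 0.0251) after SCL and -0.72 (adjusted p = 0.00116) after ECL.

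The log2 ratio of Tuba1b to Tuba1a stood at -1.44 ± 0.09 (SD) in 5 controls, at -1.61 ± 0.14 in 4 SCL libraries and at -1.74 ± 0.17 in 4 ECL libraries. Its differences from controls were -0.17 for SCL (exact permutation p = 0.0635, adjusted p = 0.143) and -0.30 for ECL (exact permutation p = 0.0317, adjusted p = 0.0952). For Tuba1c to Tuba1a the differences were -0.01 and -0.11, with exact permutation p-values of 0.937 and 0.667.

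Neither Tuba1c nor Tuba4a, an alpha gene without an encoded terminal tyrosine, passed the test. Tuba1c, a minor alpha gene here, held 6.53 to 10.8 CPM in controls (median 9.61), 6.95 to 13 CPM after SCL and 6.64 to 10.8 CPM after ECL, on 117 to 516 counts per library, and its log2 differences were 0.07 (SE 0.25, edgeR adjusted p = 0.854) and -0.10 (SE 0.25, edgeR adjusted p = 0.795). At this depth the 95% interval after ECL spanned -0.60 to 0.39. Tuba4a held 60.4 to 91.9 CPM in controls, 69.7 to 74.1 CPM after SCL and 54.3 to 74.3 CPM after ECL, with log2 differences of -0.03 (SE 0.14, edgeR adjusted p = 0.896) and -0.23 (SE 0.16, edgeR adjusted p = 0.309).

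Summed per length, the beta genes came to 528 to 611 CPM per kb in controls, 457 to 540 after SCL and 392 to 418 after ECL. The alpha genes came to 471 to 567 CPM per kb in controls, 454 to 568 after SCL and 447 to 516 after ECL. The ECL libraries thus lay below all controls in the beta sum and overlapped them in the alpha sum. The alpha-to-beta ratio of these sums was 0.812 to 1.02 in controls, 0.861 to 1.16 after SCL and 1.11 to 1.26 after ECL. Its size depends on the length used: without the exon bases shared with other genes it was 1.11 to 1.40 in controls, 1.18 to 1.59 after SCL and 1.52 to 1.73 after ECL. With Tubb4b in the beta sum it was 0.723 to 0.903, 0.774 to 1.02 and 0.981 to 1.07. Both were chosen after seeing the data, and under each every ECL library lay above every control. It is a transcript ratio, not one of protein, and no test was made on it. In all, the 10 genes summed to 2027 to 2265 CPM in controls, 1963 to 2150 CPM after SCL and 1688 to 1872 CPM after ECL.

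**Figure D3:**
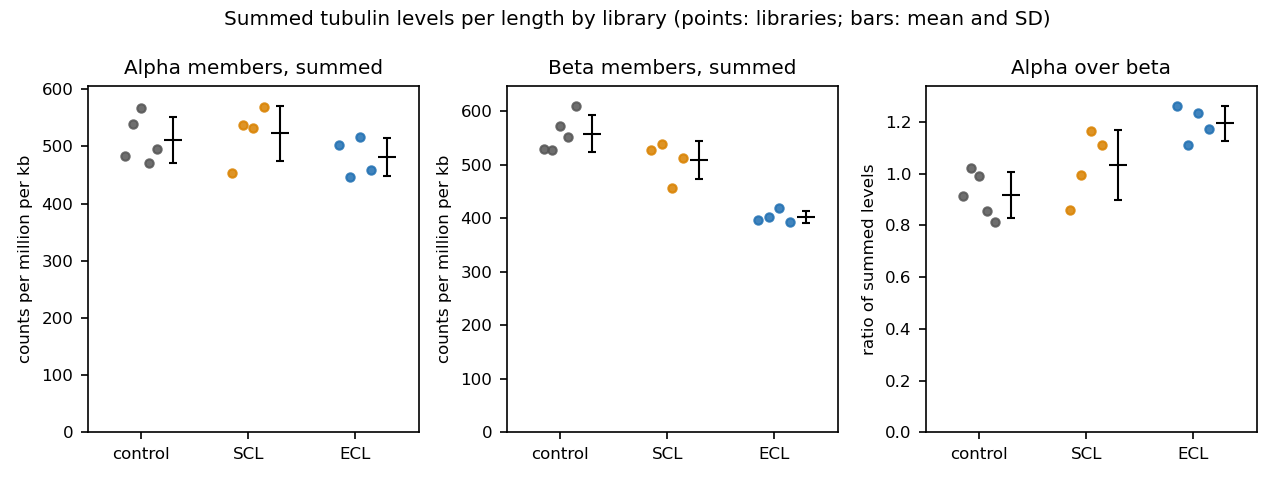
Summed levels per exon length (CPM per kb, linear axes from 0) of the 4 alpha and the 6 beta members, and their ratio, in 5 control, 4 SCL and 4 ECL libraries. Points are libraries and bars give the mean and SD. The ECL libraries lie at 392 to 418 in the beta sum, below the lowest control at 528, and their alpha-to-beta ratio lies at 1.11 or above.

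Set directly against each other, ECL and SCL gave 0 calls among the 10 members and 0 (0%) among the 12232 genes tested with edgeR. At an unadjusted p under 0.05 there were 3 members and 7.33% of all genes, and DESeq2 called 0 members and 62 genes in all. The 3 were Tubb2a, with a log2 difference of -0.44 for ECL minus SCL (SE 0.14, edgeR adjusted p = 0.551), Tubb5 at -0.47 (SE 0.16, edgeR adjusted p = 0.592) and Tubb3 at -0.35 (SE 0.16, edgeR adjusted p = 0.672). Tubb2a did not overlap between both lesions, as did not 3.83% of all genes. Tubb4a differed by 0.48 with a 95% interval from -0.38 to 1.34. The 5 calls after ECL and 0 after SCL therefore do not show that the lesions differed for any of these genes.

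The other tubulin genes gave no call in the fits as reported. Of the 10 in the list, 4 reached the minimum in the comparisons with controls. Tubb4b, a beta gene of most tissues, stood at 142 ± 19.3 CPM in controls, 144 ± 18.0 after SCL and 123 ± 20.7 after ECL, with log2 differences of 0.02 and -0.19. Tubg1 and Tubg2, the gamma-tubulins from which microtubules are nucleated, differed by 0.13 and 0.10 after SCL and by 0.37 and 0.30 after ECL, and Tubd1, delta-tubulin of centrioles, by 0.72 and 0.48. The edgeR adjusted p-values of the 4 lay between 0.113 and 0.922. Tubd1 had an unadjusted p under 0.05 after SCL, and none of the 4 did after ECL. Without control 5, Tubd1 was called higher after SCL, at 1.00 with an edgeR adjusted p of 0.0355, and it was also called without a filter on low counts, at 0.92 with an edgeR adjusted p of 0.0133.

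Genes that fold, modify and use tubulin were counted in lists. Among 22 folding chaperones and cofactors, 4 rose and 0 fell after each lesion, or 18.2% called, less than the 24.9% (SCL) and 27.8% (ECL) of all genes, with median log2 fold changes of 0.15 and 0.10. Pfdn1, a prefoldin subunit that hands new tubulin chains to the chaperonin, rose from 123 ± 31.0 CPM to 270.0 ± 36.5 after SCL (log2 1.13, edgeR adjusted p = 0.00231) and 300.2 ± 40.6 after ECL (log2 1.29, edgeR adjusted p = 0.000342). Arl2, a small GTPase that works with the cofactors in dimer assembly, rose by 0.95 (SE 0.18, edgeR adjusted p = 0.0046) and 1.12 (SE 0.19, edgeR adjusted p = 0.00114).

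Among 13 tubulin-modifying enzymes tested, 2 rose and 0 fell after each lesion, or 15.4% called against 24.9% and 27.8% of all genes. These were Svbp, the partner of the vasohibins that remove the tyrosine marked in the tails above, with log2 fold changes of 0.71 and 0.78 (edgeR adjusted p = 0.00453 and 0.00178), and Sirt2, a deacetylase of alpha-tubulin that is also high in oligodendrocytes, with 0.97 and 1.18 (edgeR adjusted p = 0.0142 and 0.00249). With the length and GC offset both calls for Svbp were lost, at 0.26 and 0.29, and without SCL culture 3 the adjusted p of Sirt2 after SCL was 0.0506.

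Among 27 microtubule-associated and stathmin genes, 1 rose and 8 fell after SCL and 1 rose and 7 fell after ECL, with medians of -0.22 and -0.20. The shares called were 33.3% and 29.6%, against the 24.9% and 27.8% of all genes, of which 11.8% were called lower after SCL and 12.5% after ECL. Map7d2, which recruits kinesin-1 to axons, fell by 0.62 on the log2 scale after SCL (edgeR adjusted p = 0.00458) and by 0.45 after ECL (edgeR adjusted p = 0.0194). Map1a, a partner of dendritic microtubules, fell by 0.68 after SCL (edgeR adjusted p = 0.00641), and its difference after ECL was -0.35 (edgeR adjusted p = 0.0887). Map7d1 gave -0.33 after SCL (edgeR adjusted p = 0.172) and fell by 0.73 after ECL (edgeR adjusted p = 0.00287). Clasp2, which stabilises growing ends, fell by 1.14 and 1.00 (edgeR adjusted p = 0.00848 and 0.0114), with controls that spread widely at 204 ± 92.7 CPM. Calls were lost without a filter for Map7d2 and Map1a after SCL (log2 -0.41 and -0.48), with a sex term for Clasp2 after ECL (-0.79), and for Map7d2 after ECL with TMM factors over all symbols (-0.26) or without ECL culture 1 or 4 (-0.38 and -0.42).

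Of 18 nucleation and severing genes, 3 rose and 0 fell after SCL and 2 rose and 1 fell after ECL, or 16.7% called each time against 24.9% and 27.8% of all genes. Tubgcp3 of the gamma-tubulin complex rose by 0.85 and 1.05 on the log2 scale (edgeR adjusted p = 0.0175 and 0.00313), and Haus7 of the augmin complex by 0.65 and 0.76 (edgeR adjusted p = 0.0279 and 0.0259), both calls of Haus7 being lost with the length and GC offset at 0.24 and 0.31. Without SCL culture 3 the adjusted p of Tubgcp3 after SCL was 0.0634, and the calls of Haus7 were also lost without SCL culture 1, 2 or 3 and without ECL culture 1 (adjusted p of up to 0.105). Of 22 motor genes, 2 rose and 5 fell after SCL and 3 rose and 2 fell after ECL, or 31.8% and 22.7% called against the same 24.9% and 27.8%. Dynll2, a dynein light chain, fell from 245 ± 49.0 CPM to 82.7 ± 24.6 after SCL and 70.5 ± 28.3 after ECL (log2 -1.57 and -1.79, edgeR adjusted p = 0.0013 and 0.000234). Dctn3, a dynactin subunit, rose by 0.90 and 0.93, and Kif3c, a kinesin-2 motor, by 1.14 and 1.30 (edgeR adjusted p between 0.000873 and 0.00801). The call of Dctn3 after ECL was lost with the length and GC offset, at 0.43. ECL against SCL gave 0 calls in each of these lists.

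Across the 13 libraries, the gene most like Tubb2a in log2 CPM among 11635 compared was Rps6kc1 (Pearson r = 0.972, Spearman rho = 0.967). For Tubb5 it was Gatad1 (r = 0.953, rho = 0.907), for Tubb4a Mxi1 (r = 0.942, rho = 0.929), for Tubb3 Fkbp5 (r = 0.932, rho = 0.940), for Tubb6 Pttg1ip (r = 0.923, rho = 0.929) and for Tuba1b Ilkap (r = 0.916, rho = 0.846). Tuba1c was most like Fam189a2 (r = 0.885), Tuba1a most like Zhx2 (r = 0.884) and Tuba4a most like Asb1 (r = 0.861), and Tubb2b had the weakest match, Gfm2 (r = 0.737). Each r is the highest of many and includes the differences between groups and the shared scaling of libraries, so it is a description only.

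**Figure D4:**
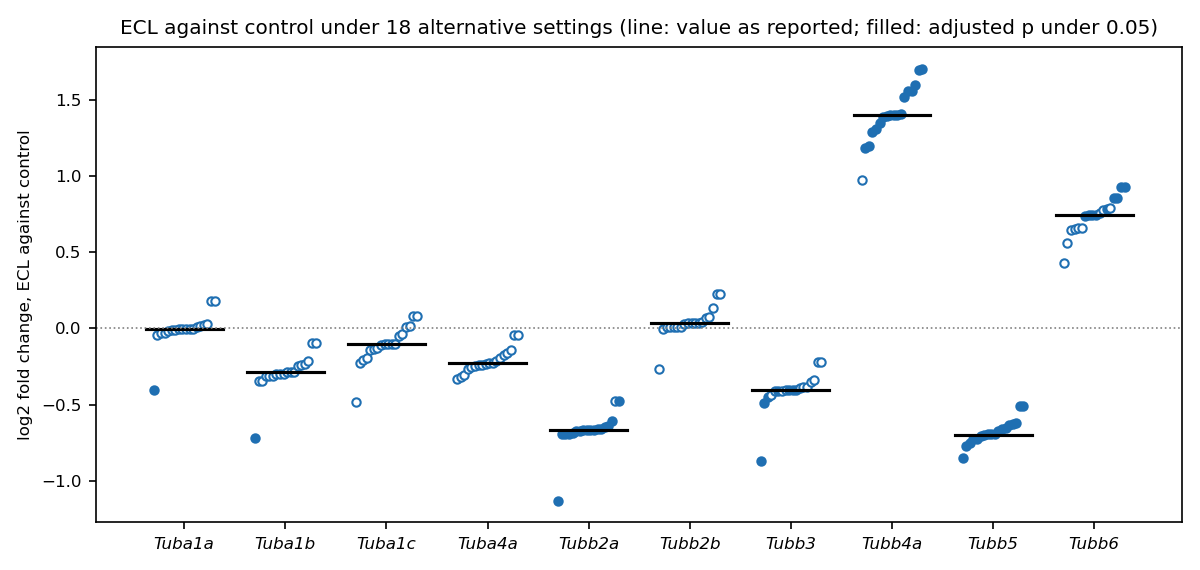
Log2 fold changes for ECL against control (vertical axis) of the 10 tubulin genes under 18 alternative settings (points, sorted within a gene; filled where the adjusted p was under 0.05), with the value as reported as a line. Tubb5 is filled under all 18, Tubb2a and Tubb4a under 17, Tubb6 under 9 and Tubb3 under 7, and Tuba1a and Tuba1b are filled under 1, the length and GC offset.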

How the data were processed

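The authors trimmed reads with cutadapt 3.5, mapped them with STAR 2.7.8a to mm10 and counted them per gene on GENCODE M25 with featureCounts 2.0.1, ignoring strand. The deposited values are raw counts for 55291 symbols, with no normalization. Whether reads matching several genes were counted is not given in the sources used here. Between 63.0% and 74.3% of counts from 1 to 20 were even, so a fit with halved counts was among the alternatives. No batch is given, and at most 1.05% of counts were equal between 2 libraries.

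Genes whose normalized counts averaged 150 or more were tested with edgeR 4.0.16 in R 4.3.3 (glmQLFit and glmQLFTest, TMM factors over the genes tested, two-sided, Benjamini-Hochberg, threshold 0.05). A standard error is the absolute log2 fold change over the square root of F. CPM use TMM factors of all 13 libraries. Paralog ratios used exact permutation tests with 0.5 added to counts. The code was tested on simulated data. Alternatives were DESeq2 1.42.0, other scalings, no filter, a single fit, a replicate block, a sex term, a length and GC offset (mgcv 1.9.3) and leaving out each library. Per pathway list, the 2 members with the smallest adjusted p after each lesion are named. Per tubulin gene, the most correlated other gene is named. Members and lists were chosen with earlier results of these data known. Replicates are biological by their labels, and by the methods of the paper each is the CA1 region of a single culture. How many animals gave the cultures is not stated in the titles or the paper. Precision is limited by 4 to 5 libraries a group. Locations, lengths and sequences come from GENCODE M21 (GRCm38), which holds 53292 of the symbols. The tail sequences of Tuba1a and Tuba1b are not reported here.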

Additional observations from a re-analysis of the deposited data

Results flagged for a closer look

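In 30 groups of 4 or 5 libraries (10 tubulin genes in 3 conditions), 2 held a library far from the others by Dixon's criterion, which chance meets in about 1 in 20 groups. Tuba1b stood at 272 CPM in control replicate 3 against 228 to 233 CPM in the other controls, a gap of 0.880 of the group's range. Tubb2b stood at 60.4 CPM in the same library against 42.5 to 45.2 CPM in the others, a gap of 0.850. Without that library the log2 difference of Tuba1b after ECL was not called either.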

How the results depend on the processing

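After SCL, the count of members called was 0, but 1 with TMM factors over all symbols (Tubb6), 1 without a filter (Tubb4a) and 2 with the length and GC offset (Tubb2a and Tuba1b, lower), and it was 0 to 1 with a library left out, 1 without SCL replicate 4. After ECL it was 5, but 3 without a filter, 3 with a sex term and 3 to 5 with a library left out: 3 without control replicate 3 or 5 or ECL replicate 1, 2 or 4. With the length and GC offset it was again 5, but for other genes: 0 higher, and Tuba1a, Tuba1b, Tubb2a, Tubb3 and Tubb5 lower. Without a filter, Tubb2a after ECL had an adjusted p of 0.0540. ECL against SCL gave 0 throughout. The causes were not tested. Counting depth limits Tuba1c and Tubb6 most.

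By the numbers in the titles, same-numbered libraries did not deviate together throughout. Correlations ran from -0.15 to 0.53, the highest for ECL and SCL replicate 1, and not every library was most like its own number. The title numbers were therefore not taken as pairs. The column headings number the cultures otherwise, and pairs by those numbers were not examined. With the replicate block the calls among members were 0 after SCL, 3 after ECL (Tubb4a, Tubb2a and Tubb5) and 0 for ECL against SCL. Ratio tests over 4 pairs cannot pass the threshold, so their outcome says nothing.

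Scaling by all symbols moved the median log2 fold change of all genes tested by more than 0.1: for SCL it went from 0.01 to 0.21 and for ECL from -0.01 to 0.18. Higher genes then made up 80.8% instead of 52.8% of the calls for SCL and 77.8% instead of 54.8% for ECL, and without a filter 58.8% and 43.0%. None of the following differences was called as reported. With all-symbol scaling they changed sign, after SCL to 0.11 for Tuba1b, 0.17 for Tuba4a and 0.16 for Tubb3, and after ECL to 0.18 for Tuba1a, 0.078 for Tuba1c and 0.0022 for Tubb4b. Without a filter, which uses the same scaling, they were 0.11, 0.17, 0.16, 0.18, 0.078 and 0.0021. With the length and GC offset they became, after SCL, -0.28 for Tuba1a, -0.24 for Tuba1c, -0.065 for Tubb2b, -0.33 for Tubb4b, -0.12 for Tubg1 and -0.22 for Tubg2, and, after ECL, -0.26 for Tubb2b and -0.11 for Tubg2.

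With a library left out, differences after SCL that changed sign ran from -0.091 to 0.21 for Tuba1c, -0.10 to 0.068 for Tuba4a, -0.17 to 0.037 for Tubb3, -0.054 to 0.090 for Tubb4b, -0.080 to 0.28 for Tubg1 and -0.090 to 0.22 for Tubg2. Those after ECL ran from -0.045 to 0.026 for Tuba1a, -0.23 to 0.017 for Tuba1c and -0.0057 to 0.14 for Tubb2b. The difference in the log2 ratio of Tuba1c to Tuba1a ran from -0.12 to 0.061 for SCL, -0.25 to 0.0062 for ECL and -0.24 to 0.019 for ECL against SCL.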
